A study of Mus musculus with 6 samples.

Results

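The 9 genes described here code for cadherins, the calcium-dependent adhesion receptors at contacts between cells, and for the catenins that bind their cytoplasmic tails. They were chosen by name as rows of the deposited tables: 6 cadherins (Cdh2, Cdh4, Cdh5, Cdh11, Cdh13 and Cdh15) and 3 catenins (Ctnna1, Ctnnb1 and Ctnnd1), out of 24346 gene symbols. The libraries came from mouse cranial base cartilage, the spheno-occipital synchondrosis, a growth cartilage between bones of the skull base, whose layers of flat and of round chondrocytes were cut out by laser microdissection. There were 3 FP libraries and 3 RR libraries, numbered 11, 14 and 16 in each. The labels do not spell out the codes FP and RR, which are therefore kept. All 6 libraries share the genotype Gli1CreERT2; Tomato flox, in which a tamoxifen-dependent Cre recombinase is driven by the Gli1 gene and a Tomato reporter is floxed. Tamoxifen was injected at postnatal day 3 in all of them. The sources used here give neither the age at collection nor the number of animals.

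Classical cadherins on neighbouring cells bind each other through their outer domains. Inside the cell their tails hold beta-catenin (Ctnnb1) and p120-catenin (Ctnnd1), and alpha-catenin (Ctnna1) links beta-catenin to the actin cytoskeleton. Beta-catenin is also the transcriptional effector of canonical Wnt signalling, which in growth cartilage takes part in chondrocyte maturation. N-cadherin (Cdh2) is known for its part in the condensation of mesenchyme that precedes cartilage.

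Levels are in FPKM, a read count divided by transcript length and library size, so that they can be compared between genes. The chondrocyte label was borne out by the marker list: all 13 chondrocyte markers, Col2a1 and Acan among them, were measured, with a summed level of 56400 to 97880 FPKM in FP and 47634 to 99064 FPKM in RR, most of it Col2a1. Without Col2a1 the sum was 15288 to 23632 FPKM in FP and 8937 to 17191 FPKM in RR. Of the 13 markers 0 passed the test, but 12 had estimates above 0, with a median log2 change of 0.83, beside 0.017 for all tested genes. Matn3, Sox9, Col11a1 and Acan were wholly higher in FP. These are 4 of 13, against 8.74% of all tested genes, and their part in the catenin values below was not tested. One fragment on a transcript of 2000 bp was worth 0.128 to 0.296 FPKM, so that the deepest library, FP 11, was 2.31 times as deep as the shallowest, RR 14, if libraries were not rescaled. RR 14 stood apart, with a Pearson's r of log2 values across tested genes of 0.766 to 0.817 with the other 5 libraries, against 0.796 to 0.873 for the pairs without it. Genes are not independent replicates in such an r.

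No cadherin or catenin gene among the 9 passed the test between FP and RR, and the point estimates ran in opposite directions for the most abundant catenins and for Cdh2 and Cdh11. Beta-catenin and alpha-catenin stood higher in FP on average, by 1.58-fold and 1.41-fold. N-cadherin and Cdh11 stood lower, at 0.409 and 0.577 of their RR means. In limma on log2(FPKM + 1), 0 of the 7 members whose mean reached 1 FPKM had a Benjamini-Hochberg adjusted p under 0.05, against 0.967% of all 14789 tested genes (0.554% higher and 0.412% lower in FP). At an unadjusted p under 0.05 stood 1 of the 7, Cdh2, against 10.3% of all tested genes. That fit did not pair libraries of the same number. In limma with the number as a block it was 3 of the 7, against 15.6% of all tested genes. With the number as a random effect it was 4 of the 7, against 16.1%. Compared within each number, Cdh2, Cdh11 and Ctnnd1 were lower in FP in all 3 numbers, and Ctnnb1 and Ctnna1 higher. Cdh5 and Cdh13 changed direction between numbers. Of all tested genes, 21.0% were higher in FP in all 3 numbers and 17.9% lower or equal. The median log2 change of the 7 tested members was -0.21, beside 0.017 for all tested genes. The other 2 members, Cdh4 and Cdh15, were too low for the test and are given as values.

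**Figure D1:**
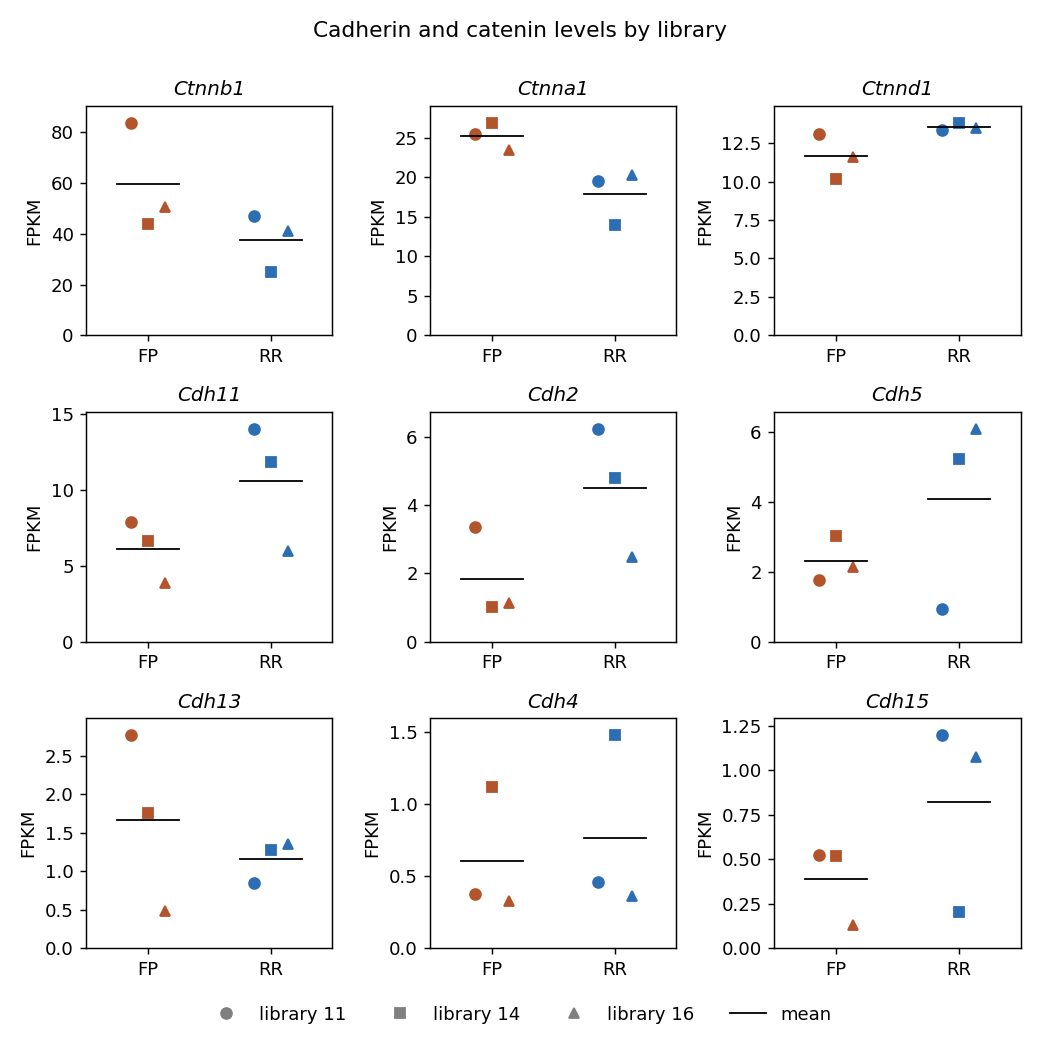
FPKM of the 9 genes (vertical axes, each from 0) in the 3 FP libraries (left) and the 3 RR libraries (right); shapes mark the library number and lines the group mean. The groups are apart for Ctnna1 (all FP values above RR) and Ctnnd1 (all FP values below RR) and overlap for the other 7 genes.

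Ctnnb1, on chromosome 9 of mm10 (120929216 to 120960507, plus strand), codes for beta-catenin and was the most abundant of the 9. It was at 83.7, 43.8 and 50.7 FPKM in the FP libraries 11, 14 and 16, against 47.0, 24.8 and 41.0 FPKM in the RR libraries 11, 14 and 16. FP 11 was the highest library and RR 14 the lowest, and FP 14 lay below RR 11, so the groups overlapped. The means were 59.4 ± 21.3 FPKM in FP and 37.6 ± 11.5 FPKM in RR (SD, n = 3 each). The log2 change was 0.64 ± 0.35 (SE, 95% interval -0.16 to 1.44, limma adjusted p = 0.626). Without RR 14 it was 0.37, and without FP 11 it was also 0.37, with adjusted p = 0.918 and 0.813. Over the 6 fits without 1 library it ran from 0.37 to 0.83. After quantile normalization, which gives all libraries the same distribution of values, it was 0.37 (adjusted p = 0.804).

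Ctnna1, on chromosome 18 (35118859 to 35254779, plus strand), codes for alpha-catenin, the link to actin. It was at 25.4, 26.9 and 23.4 FPKM in the FP libraries 11, 14 and 16, against 19.5, 13.98 and 20.3 FPKM in the RR libraries 11, 14 and 16. All 3 FP libraries lay above all 3 RR libraries, and the FP values were close together. The means were 25.3 ± 1.73 FPKM in FP and 17.9 ± 3.44 FPKM in RR (SD, n = 3 each). The log2 change of 0.49 ± 0.26 (SE, 95% interval -0.094 to 1.07) missed the threshold (limma adjusted p = 0.602), and without RR 14 it was 0.33 (adjusted p = 0.889). After quantile normalization it was 0.30 (adjusted p = 0.765).

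Ctnnd1, on chromosome 2 (84600071 to 84650765, minus strand), codes for p120-catenin, which holds cadherins at the cell surface. It was at 13.1, 10.2 and 11.6 FPKM in the FP libraries 11, 14 and 16, against 13.4, 13.8 and 13.5 FPKM in the RR libraries 11, 14 and 16. All FP values lay below all RR values, but FP 11 lay close below RR 11, and the RR libraries differed little among themselves. The means were 11.6 ± 1.47 FPKM in FP and 13.5 ± 0.244 FPKM in RR (SD, n = 3 each), with a log2 change of -0.21 ± 0.24 (SE, 95% interval -0.75 to 0.33, limma adjusted p = 0.845). The estimate was -0.12 without FP 14 and between -0.29 and -0.20 in the other 5 fits without 1 library. Its exons overlap those of Gm28635, a gene on the same strand, so the counting could have divided reads between them. Ctnna1 and Ctnnd1 were thus the 2 of the 7 tested members whose groups did not overlap, 1 in each direction. Of all tested genes, 8.74% lay wholly higher in FP and 7.28% wholly lower.

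Cdh11, on chromosome 8 (102632095 to 102785642, minus strand), codes for cadherin-11 of mesenchymal cells and osteoblasts and was the most abundant cadherin of the 6. It was at 7.87, 6.62 and 3.84 FPKM in the FP libraries 11, 14 and 16, against 13.98, 11.8 and 5.96 FPKM in the RR libraries 11, 14 and 16. The library numbered 16 was the lowest in each group, and RR 16 lay below FP 11 and FP 14. The means were 6.11 ± 2.06 FPKM in FP and 10.6 ± 4.15 FPKM in RR (SD, n = 3 each), with a log2 change of -0.68 ± 0.37 (SE, 95% interval -1.52 to 0.17, limma adjusted p = 0.624). Over the 6 fits without 1 library the estimate ran from -1.01 without RR 16 to -0.42 without FP 16, with adjusted p of 0.345 to 0.885. Perichondrium and fibroblast markers, 13 of 14 of them at a mean of 1 FPKM or more, also differed between libraries, with sums of 303 to 990 FPKM in FP and 309 to 1751 FPKM in RR, highest in the library numbered 11 and lowest in 16 in both groups. Col1a1 and Col1a2 made up most of that sum. The other markers did not all follow it: 6 of the 13 tested had estimates above 0, and 0 passed. Pdgfrb, Pdgfra and Scx were wholly lower in FP, with log2 changes of -1.17, -0.81 and -1.09 (limma adjusted p = 0.0833, 0.333 and 0.333), which is 3 of 13, against 7.28% of all tested genes. Tnmd was listed at 0 in FP 16 and RR 16. Osteoblast markers had sums of 326 to 537 FPKM in FP and 42.8 to 341 FPKM in RR. Of the 9 tested, 2, Sp7 and Alpl, rose in FP while 0 fell, against 0.554% and 0.412% of all tested genes. Ibsp, named here after its values were seen, did not pass (limma adjusted p = 0.0571). It was also wholly higher in FP, which makes 3 of the 9, against 8.74% of all tested genes. Bglap, a late osteoblast gene, overlapped, with 7.44, 5.69 and 2.77 FPKM in FP, against 32.5, 0 and 0.651 FPKM in RR. Phex, Spp1, Dmp1, Mepe and Bglap2, named here after their values were seen, overlapped too. Of the 9 tested, 7 had estimates above 0, while Mepe and Bglap2 had log2 changes of -0.50 and -0.15. Which cells these genes came from, and the part of such cells in the Cdh11 values, was not tested. In such bulk samples, fewer cells of a type and less RNA per cell cannot be told apart.

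Cdh2, the N-cadherin gene, lies on chromosome 18 (16588877 to 16809246, minus strand). It was at 3.37, 1.03 and 1.13 FPKM in the FP libraries 11, 14 and 16, against 6.23, 4.80 and 2.48 FPKM in the RR libraries 11, 14 and 16. FP 14 and FP 16 were the 2 lowest of the 6 libraries, while FP 11 lay above RR 16. The means were 1.84 ± 1.32 FPKM in FP and 4.51 ± 1.89 FPKM in RR (SD, n = 3 each). The log2 change of -0.98 ± 0.41 (SE, 95% interval -1.93 to -0.039) had an unadjusted p = 0.0431 and a limma adjusted p = 0.465. Over the 6 fits without 1 library the estimate ran from -1.34 without FP 11 to -0.75 without RR 11, with adjusted p of 0.322 to 0.787.

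Cdh5, on chromosome 8 (104101625 to 104144511, plus strand), codes for VE-cadherin, the cadherin of endothelial junctions. It was at 1.77, 3.03 and 2.13 FPKM in the FP libraries 11, 14 and 16, against 0.927, 5.22 and 6.07 FPKM in the RR libraries 11, 14 and 16. RR held both the lowest and the 2 highest libraries, with FP in between. The means were 2.31 ± 0.649 FPKM in FP and 4.07 ± 2.76 FPKM in RR (SD, n = 3 each), and the log2 change was -0.43 ± 0.49 (SE, 95% interval -1.55 to 0.70, limma adjusted p = 0.848). It was -0.18 without RR 14, -0.084 without RR 16 and -1.02 without RR 11. Of 15 endothelial markers, 10 had a mean of at least 1 FPKM. The summed level of all 15 was 15.6 to 28.9 FPKM in FP and 15.5 to 33.6 FPKM in RR. Of the 10 tested, 4 had estimates above 0 and 0 passed, with a median log2 change of -0.030. Those with the smallest p were Kdr and Tek, with log2 changes of -0.77 and -0.53 (limma adjusted p = 0.543 and 0.711). Erg, Esam, Cd34 and Egfl7 had estimates above 0, of 0.16 to 0.35. Pecam1, the endothelial CD31 gene, had 1.47, 2.11 and 3.30 FPKM in FP, against 0.804, 3.02 and 4.57 FPKM in RR. Sox17, a transcription factor gene of endothelial cells, was too low to test and is named here after its values were seen. It had 0.198, 0 and 0.217 FPKM in FP, against 1.59, 1.98 and 1.63 FPKM in RR. The other markers too low to test, Cldn5, Sox18, Vwf and Robo4, overlapped between the groups. Of these, Robo4 had the higher mean in FP, at 0.853 FPKM against 0.606 FPKM in RR. The part of endothelial RNA in the Cdh5 values was not tested.

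Cdh13 codes for T-cadherin, which is anchored in the membrane by a lipid and has no cytoplasmic tail for catenins, so that it is a member of the family but not a classical cadherin. It lies on chromosome 8 (118283733 to 119324921, plus strand) and had 2.76, 1.75 and 0.481 FPKM in the FP libraries 11, 14 and 16, against 0.840, 1.28 and 1.36 FPKM in the RR libraries 11, 14 and 16. FP held the 2 highest libraries and the lowest, so the RR range lay within the FP range. The means were 1.67 ± 1.14 FPKM in FP and 1.16 ± 0.279 FPKM in RR (SD, n = 3 each), and the log2 change was 0.21 ± 0.44 (SE, 95% interval -0.78 to 1.21, limma adjusted p = 0.936). Without FP 11 the sign turned, to -0.087. The values rest on few reads, about 4.89 to 40.8 fragments per library.

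**Figure D2:**
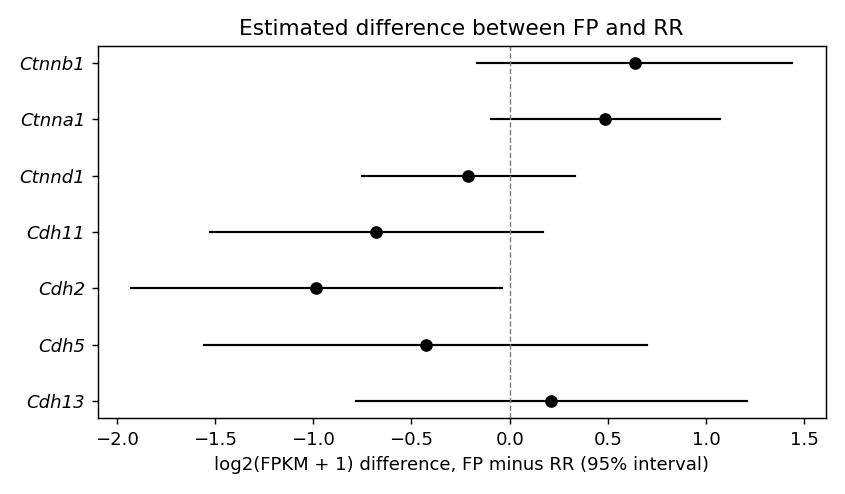
Estimated difference in log2(FPKM + 1), FP minus RR (horizontal axis), for the 7 tested members; points are limma estimates and lines unadjusted 95% intervals. Ctnnb1, Ctnna1 and Cdh13 lie right of 0 and the other 4 left of it, and the interval of Cdh2 alone leaves out 0.

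Cdh4 codes for R-cadherin, first described in the retina, and lies on chromosome 2 (179442431 to 179899373, plus strand). It was at 0.375, 1.12 and 0.327 FPKM in the FP libraries 11, 14 and 16, against 0.457, 1.48 and 0.359 FPKM in the RR libraries 11, 14 and 16. The library numbered 14 was the highest in each group, and these are also the 2 shallowest libraries. The means were 0.607 ± 0.444 FPKM in FP and 0.764 ± 0.619 FPKM in RR (SD, n = 3 each). Cdh15 codes for M-cadherin of skeletal muscle and its satellite cells, on chromosome 8 (122847966 to 122867397, plus strand). It was at 0.524, 0.520 and 0.127 FPKM in the FP libraries 11, 14 and 16, against 1.19, 0.202 and 1.07 FPKM in the RR libraries 11, 14 and 16. The groups overlapped, with RR 14 below FP 11 and FP 14. These Cdh15 values correspond to about 1.11 to 10.0 fragments per library. How large a difference between FP and RR could be detected from so few fragments was not tested. Skeletal muscle markers were present in every library: 11 of 15 had a mean of at least 1 FPKM. The sums over all 15 were 456 to 539 FPKM in FP and 274 to 818 FPKM in RR. Tnni2, a troponin gene, made up most of that sum, and without it the sums were 204, 142 and 209 FPKM in FP, against 188, 37.8 and 48.5 FPKM in RR. Of the 11, 10 had estimates above 0, all but Tnni2, with a median log2 change of 0.84, and 0 passed. Myh8 and Myl1, the myosin genes with the smallest p, had log2 changes of 2.01 and 1.81 (limma adjusted p = 0.215 and 0.403). Genes of satellite cells and myoblasts were low, with Myod1, Myf5 and Myog at 2.55 FPKM at most. Myf5 was listed at 0 in FP 11 and RR 14, Myod1 in FP 14, and Myog in FP 14 and RR 16. Their part in the Cdh15 values was not tested.

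The order of levels was the same for the 4 most abundant genes in both groups: Ctnnb1, Ctnna1, Ctnnd1 and Cdh11. In FP each of these 4 was separate from the next in range, and Cdh11 was separate from Cdh5, at 3.84 to 7.87 FPKM against 1.77 to 3.03 FPKM. In RR, Ctnnb1, Ctnna1 and Ctnnd1 were separate, while Cdh11 (5.96 to 13.98 FPKM) overlapped both Ctnnd1 (13.4 to 13.8 FPKM) and Cdh2 (2.48 to 6.23 FPKM). Below Cdh11 the ranges of neighbours overlapped in both groups. The mean level over the 6 libraries put Ctnnb1 above 97.1% of all listed genes and Cdh15 above 27.2%. None of the 9 genes was listed at 0 in any library.

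The summed level of the 3 catenins was higher in FP and that of the 6 cadherins lower. Summed cadherins were at 16.7, 14.1 and 8.03 FPKM in the FP libraries 11, 14 and 16, against 23.6, 24.8 and 17.3 FPKM in the RR libraries 11, 14 and 16. Summed catenins reached 122, 80.8 and 85.8 FPKM in FP, against 79.9, 52.6 and 74.8 FPKM in RR, in the same order of libraries. Neither sum overlapped between the groups, though the nearest libraries were close: FP 11 and RR 16 for the cadherins, FP 14 and RR 11 for the catenins. The ratio of catenins to cadherins, from which any scaling between libraries cancels, was 7.33, 5.75 and 10.7 in FP, and 3.38, 2.12 and 4.32 in RR. Its mean was 7.92 ± 2.52 in FP libraries, against 3.27 ± 1.10 in RR libraries (SD, n = 3 each), which is 2.42-fold higher in FP. On the log2 scale the difference between the groups was 1.29, and it ran from 1.003 without RR 14 to 1.52 without RR 16. With Cdh2 and Cdh11 as the only cadherins, an alternative added after the data were seen, it was 1.39. With Ctnnb1 left out, also added after the data were seen, it was 1.04. No p is given for this ratio, because the genes were chosen with results of these data known and because 3 libraries against 3 allow no exact two-sided permutation p below 0.10.

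**Figure D3:**
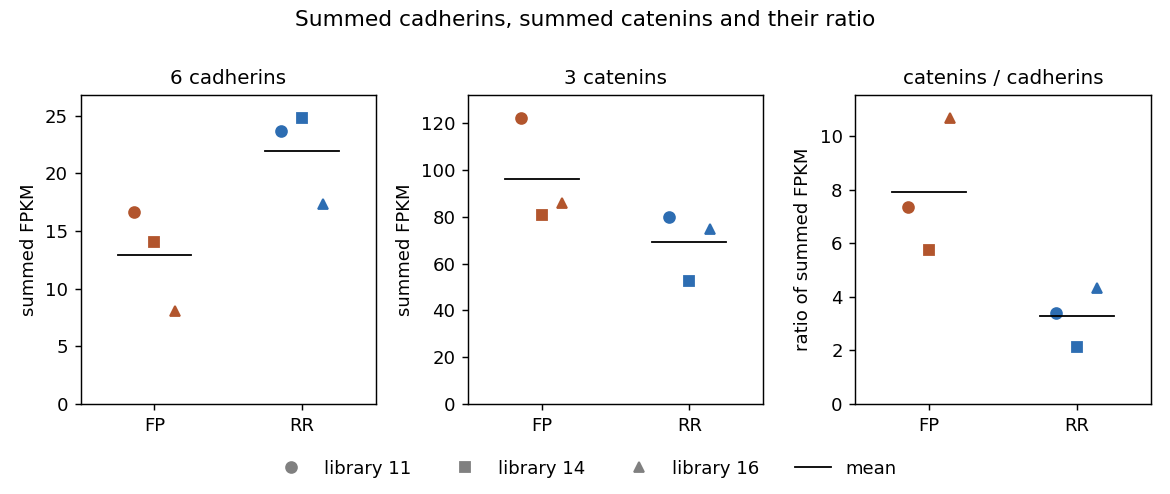
Summed FPKM of the 6 cadherins and of the 3 catenins, and their ratio (vertical axes, from 0), in FP libraries (left) and RR libraries (right); shapes mark the library number and lines the group mean. The ratio was 5.75 to 10.7 in FP and 2.12 to 4.32 in RR, so that all FP libraries lay above all RR libraries.

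Within the catenins, the share of Ctnnd1 was smaller in FP. It made up 10.7%, 12.6% and 13.6% of the summed catenin FPKM in FP libraries 11, 14 and 16, and 16.7%, 26.3% and 17.99% in RR libraries 11, 14 and 16. All FP shares lay below all RR shares. Within each library, the log2 ratio of Ctnnb1 to Ctnnd1 was 2.11 to 2.68 in FP and 0.84 to 1.82 in RR, and that of Ctnna1 to Ctnnd1 was 0.96 to 1.40 in FP and 0.016 to 0.59 in RR. Both ratios were higher in all FP libraries than in any RR library. They are among 5 of 20 shares and ratios computed within libraries whose groups did not overlap. The other 15 overlapped, the ratio of Ctnnb1 to Ctnna1 and that of each catenin to Cdh11 among them. The 20 measures reuse the same 9 genes and are not independent of each other. Of all tested genes taken singly, 8.74% lay wholly higher and 7.28% wholly lower in FP. The share of Ctnnb1 averaged 60.6% ± 7.28 in FP, against 53.6% ± 5.95 in RR (SD, n = 3 each), and its ranges overlapped. Within the cadherins, Cdh11 held 47.0% to 47.8% of the summed FPKM in the 3 FP libraries and 34.5% to 59.2% in the 3 RR libraries. Its mean share was thus nearly equal, at 47.4% ± 0.403 in FP and 47.1% ± 12.4 in RR (SD). The share of Cdh5 ran from 10.6% to 26.5% in FP and from 3.92% to 35.1% in RR. The share of Cdh2 ran from 7.33% to 20.2% in FP and from 14.3% to 26.4% in RR.

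**Figure D4:**
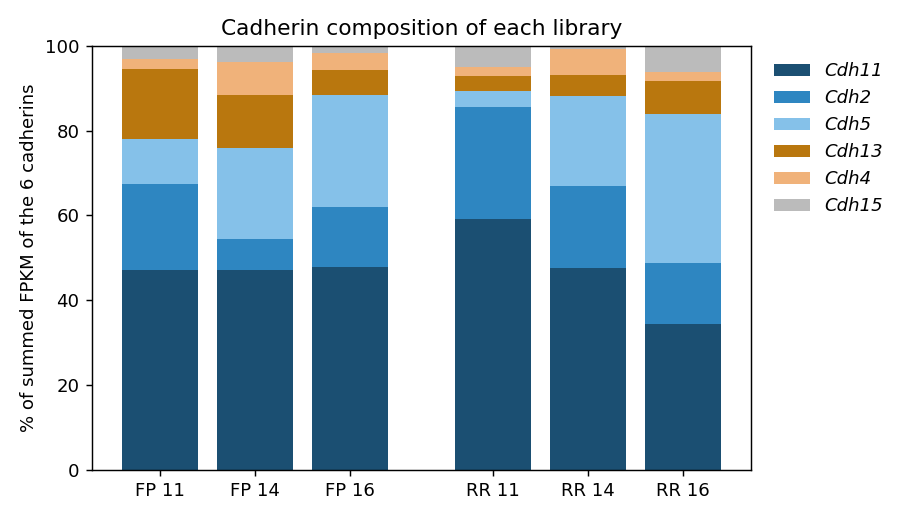
Share of each cadherin in the summed FPKM of the 6 cadherins (vertical axis, %) for each FP library (left) and RR library (right), as stacked bars. Cdh11 holds close to the same share in the 3 FP libraries, while in RR its share was 59.2% in RR 11 and 34.5% in RR 16, where Cdh5 held 35.1%.

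Among catenin family genes outside the 9, Ctnnal1 was lower in FP. Ctnnal1 codes for alpha-catulin, a relative of alpha-catenin and vinculin. It was at 13.3, 13.7 and 10.8 FPKM in the FP libraries 11, 14 and 16, against 38.5, 41.5 and 45.2 FPKM in the RR libraries 11, 14 and 16. The groups were far apart relative to their spread, with means of 12.6 ± 1.58 FPKM in FP and 41.7 ± 3.32 FPKM in RR (SD, n = 3 each). The log2 change was -1.66 ± 0.24 (SE, limma adjusted p = 0.0202). Each of the 6 fits without 1 library ended this call, with estimates of -1.72 to -1.56 and adjusted p of 0.0538 to 0.146. Of the 7 genes tested on that list of 11, 0 rose and 1 fell, against 0.554% and 0.412% of all tested genes. Groups did not overlap for 2 of the 7, both lower in FP, against 7.28% of all tested genes. Arvcf, a p120-catenin relative, had 2.49, 3.502 and 2.42 FPKM in FP, against 6.35, 9.26 and 5.86 FPKM in RR, with groups that did not overlap, but did not pass (log2 change -1.09, adjusted p = 0.174). Jup, the plakoglobin gene, a close relative of beta-catenin named here after its values were seen, had 1.199, 2.76 and 2.02 FPKM in FP, against 1.75, 2.89 and 3.54 FPKM in RR.

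**Figure D5:**
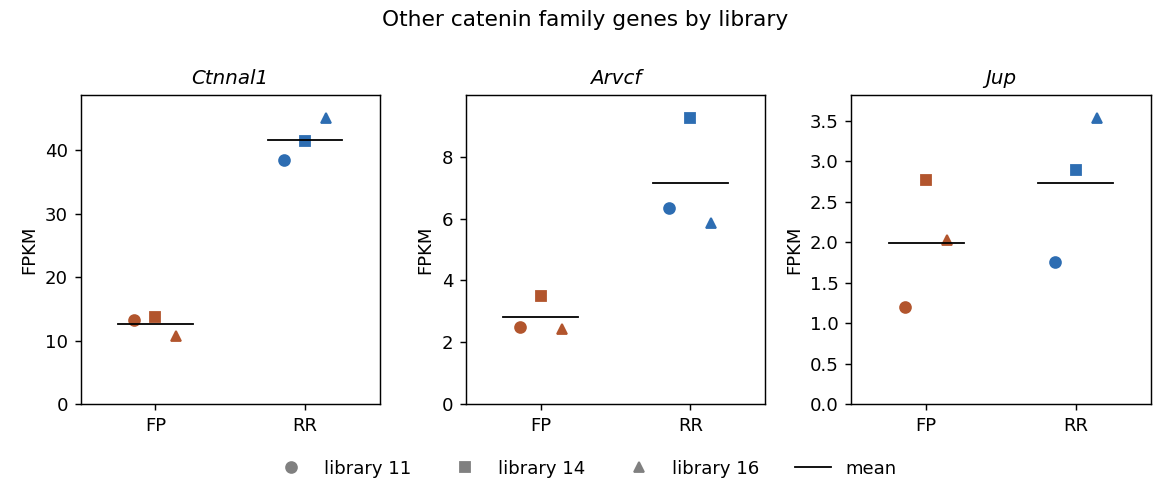
FPKM of Ctnnal1, Arvcf and Jup (vertical axes, each from 0) in FP libraries (left) and RR libraries (right); shapes mark the library number and lines the group mean. Ctnnal1 was at 10.8 to 13.7 FPKM in FP and 38.5 to 45.2 FPKM in RR, Arvcf was also apart, and the Jup ranges overlapped.

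Of 13 other classical cadherins, 2 were abundant enough to test and 0 passed. Cdh19 had a log2 change of 0.58 (limma adjusted p = 0.755) and Cdh24 one of -0.41 (adjusted p = 0.774). Cdh1, the epithelial E-cadherin gene, named here after its values were seen, had 0.219, 0.435 and 1.51 FPKM in FP, against 0.333, 1.90 and 0.822 FPKM in RR and was too low to test. Of 21 adherens junction partners, 19 were tested and 0 passed, with a median log2 change of -0.093. Iqgap1, a scaffold that binds actin and beta-catenin, had 31.3, 26.2 and 28.1 FPKM in FP, against 18.7, 14.5 and 15.8 FPKM in RR (log2 change 0.77, adjusted p = 0.276). Mllt4, the older symbol of the afadin gene, which ties nectins to actin, had 11.3, 16.2 and 14.2 FPKM in FP, against 19.2, 24.5 and 27.8 FPKM in RR (log2 change -0.74, adjusted p = 0.368). Both genes had groups that did not overlap, in opposite directions. Lpp, named here after its values were seen, was also wholly lower in FP (adjusted p = 0.829). Of the 19, 1 was thus wholly higher and 2 wholly lower in FP, against 8.74% and 7.28% of all tested genes.

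For the signalling side of beta-catenin, 17 genes of its turnover and of its TCF partners were tested and 0 passed in limma. Of these, 0 had an unadjusted p under 0.05, against 10.3% of all tested genes, and the median log2 change was 0.13. Groups did not overlap for 5 of the 17, with 4 lower and 1 higher in FP, against 7.28% and 8.74% of all tested genes. The lower ones were Amer1, Btrc, Pygo1 and Tcf7l2, all but Amer1 named here after their values were seen. Tcf7l2 had 28.6, 26.5 and 31.0 FPKM in FP, against 34.1, 35.0 and 51.4 FPKM in RR (adjusted p = 0.661). Gsk3b, the kinase that marks beta-catenin for degradation, had 7.75, 7.35 and 7.16 FPKM in FP, against 6.11, 5.01 and 3.81 FPKM in RR (adjusted p = 0.573). Amer1, a scaffold of the destruction complex, had 0.781, 1.72 and 1.014 FPKM in FP, against 2.08, 3.03 and 2.02 FPKM in RR (adjusted p = 0.605). Of 14 Wnt target genes, 9 were tested and 0 passed, with a median log2 change of 0.14. At an unadjusted p under 0.05 stood 4 of the 9, against 10.3% of all tested genes, and 3 of the 9 were wholly higher in FP, against 8.74%. Ccnd1, the cyclin D1 gene, had 23.7, 14.1 and 25.2 FPKM in FP, against 8.88, 6.68 and 8.93 FPKM in RR (log2 change 1.23, adjusted p = 0.138). Notum, which codes for an extracellular Wnt inhibitor, had 27.8, 50.7 and 60.5 FPKM in FP, against 9.46, 14.7 and 30.5 FPKM in RR (log2 change 1.38, adjusted p = 0.301). Nkd1, an inhibitor of the pathway, and Myc, a transcription factor gene, both named here after their values were seen, were wholly higher in FP, with log2 changes of 0.98 and 0.88 (adjusted p = 0.356 and 0.432). Axin2, another direct Wnt target, which stands on both lists and is named here after its values were seen, had 2.103, 4.29 and 6.11 FPKM in FP, against 1.90, 5.13 and 6.36 FPKM in RR, so that its groups overlapped.

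The genes with the most similar profile were sought for the 2 members with the smallest p, as Pearson's r of log2(FPKM + 1) over the 6 libraries, among named genes whose mean reached 5 FPKM. For Cdh2 these were Epm2aip1, Bod1l and Prkar2a, each with r = 0.96, out of 6517 candidates of which 38 had an r over 0.9. For Ctnna1 these were Snrpa1 (r = 0.995), Rnf149 (r = 0.985) and Ppp2ca (r = 0.985), with 214 of 6516 candidates over 0.9. These r values describe 6 libraries that share the same 2 groups and unequal depths.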

How the data were processed

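Per the file headers, the authors deposited FPKM values, with a column for each library. The submitters' processing notes name Cuffdiff 2.2.1, TopHat2 2.1.1, SAMtools 0.1.18, Bowtie2 2.2.8 and build mm10. Settings, annotation, use of strand and scaling between libraries were not given in the sources used. Per the labels' protocols, total RNA from frozen sections was prepared with a SMARTer stranded kit for very small inputs. Since no source ties the libraries to separate animals, the p-values reflect the spread of these 6 samples only, and that spread may be technical.

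The contrast FP minus RR was tested two-sided in R 4.3.3 with limma 3.58.1, by lmFit and by eBayes using an intensity trend, on log2(FPKM + 1) of the 14789 genes whose mean reached 1 FPKM. Benjamini-Hochberg adjustment ran over all of them, with a threshold of 0.05. This scale understates the change of low genes. Fold values are ratios of mean FPKM. The fit was tested on simulated data. The members and lists were chosen with earlier results of these data known. Of each other list, the genes past the threshold and otherwise the 2 with the smallest p are named, and of other cell types the defining markers that bear on a member. Further genes were named after their values were seen, which is said beside them. The chondrocyte markers, and the endothelial and perichondrial ones given by their direction, were also named after their values were seen. Symbols missing from the files were matched through RefSeq synonyms, and 2 list genes found no match. Depth was read from the steps of low values of single-transcript genes of 1500 to 3000 bp in GENCODE M21. With the step used, 72.1% to 75.0% of low values were whole fragments within a tolerance of 0.1. A step fixed beforehand would give 20% by chance. The step was itself chosen for a high such share, so 20% is too low a mark for it. Fragments per gene assume its longest coding transcript. Exact permutation p-values were planned for the sums and shares but are not given. Coordinates are from GENCODE M21 on mm10. All 9 members were found there.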

Additional observations from a re-analysis of the deposited data

How the results depend on the processing

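Under 20 alternative settings, the 7 tested members gave 137 estimates, of which 0 passed the threshold and 3 turned sign, all 3 for Cdh13. Its log2 change was -0.016 with library weights and -0.20 without both libraries numbered 11, and it ran from -0.087 to 0.59 in the fits without 1 library. The sign of the other 6 tested members held in each alternative that gave a value, including the 3 rescalings. The size did not always hold. Under quantile normalization Ctnnb1 and Ctnna1 came to 0.37 and 0.30, against 0.64 and 0.49 in the main fit. Ctnnd1 came to -0.35, against -0.21. The summed FPKM of all genes ran from 547371 in RR 11 to 1126070 in FP 14. The number of all genes called, 143 with all libraries, was 83 without an intensity trend, and 42 to 85 without 1 library. It was 42, 8 and 20 without both libraries numbered 11, 14 and 16. The fits without 1 library and those without both libraries of a number also held fewer samples. The cause of these differences was not tested. With no filter, Cdh4 and Cdh15 had log2 changes of -0.11 and -0.36 (adjusted p = 0.962 and 0.835).

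Deviations from the group means correlated between libraries of the same number at r = 0.32, 0.18 and 0.09 for 11, 14 and 16. Every library correlated best with its own number, but the last value is under 0.1, the minimum set for pairing. The main fit did not take the numbers as pairs, also because no label says that a number marks an animal. A value under that minimum does not show that libraries of the same number are unrelated. With the replicate block 271 genes were called, and 412 with it as a random effect, in both cases 0 of the 7 tested members. The smallest adjusted p among them under the block was 0.173, for Cdh2. At an unadjusted limma p under 0.05 stood 3 of the 7 tested members with the block, Cdh2, Cdh11 and Ctnnb1, against 15.6% of all tested genes. With the random effect Ctnna1 joined them, which makes 4 of the 7, against 16.1%. Outside the members, Ccnd1 and Notum passed under the block (adjusted p = 0.0409 and 0.0373), Ccnd1 and Arvcf with it as a random effect (0.0266 and 0.0388), and none of these 3 in another alternative. Celsr2 and Pcdh19 passed in both block fits. Celsr2 also passed in 3 other alternatives and Pcdh19 in 1. The call of Ctnnal1 ended in the 6 fits without 1 library and the 3 without both libraries of a number (adjusted p up to 0.353), and held in the 11 others. Precision is limited by 3 libraries a group and, for Cdh4, Cdh13 and Cdh15, by few fragments.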

Other observations

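Larger members of the cadherin superfamily were mostly lower in FP by their estimates. Of 21 protocadherin, Fat, Dachsous, Celsr and calsyntenin genes, 17 were tested and 0 passed in limma. At an unadjusted p under 0.05 stood 5 of the 17, against 10.3% of all tested genes. Estimates were above 0 for 4, and the median log2 change was -0.42, beside 0.017 for all tested genes. Groups did not overlap for 7 of the 17, 6 of them lower and 1 higher in FP, against 7.28% and 8.74% of all tested genes. Pcdh19, a protocadherin gene, was at 0.855, 1.38 and 0.910 FPKM in the FP libraries 11, 14 and 16, against 4.45, 5.74 and 4.18 FPKM in the RR libraries 11, 14 and 16 (log2 change -1.50 ± 0.29 SE, limma adjusted p = 0.0623). Celsr2, a large cadherin of planar cell polarity, had 2.83, 3.997 and 4.05 FPKM in FP, against 8.36, 15.0 and 16.7 FPKM in RR (log2 change -1.59 ± 0.31 SE, adjusted p = 0.0671). Fat1, an atypical cadherin named here after its values were seen, ran the other way, at 51.8, 32.2 and 38.8 FPKM in FP and 28.6, 17.8 and 25.8 FPKM in RR (adjusted p = 0.435).

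Of 8 genes of cadherin shedding and cleavage, 0 passed, with a median log2 change of -0.0065. At an unadjusted p under 0.05 stood 1 of the 8, against 10.3% of all tested genes. Psen2, a catalytic subunit of gamma-secretase, had 1.54, 2.30 and 2.24 FPKM in FP, against 6.06, 5.65 and 3.51 FPKM in RR (log2 change -0.99, limma adjusted p = 0.251). It was wholly lower in FP, which is 1 of the 8, against 7.28% of all tested genes. Ctsb, the cathepsin B gene, had 20.6, 9.38 and 12.1 FPKM in FP, against 20.7, 16.9 and 22.5 FPKM in RR (log2 change -0.55, adjusted p = 0.658). Among perichondrium and fibroblast markers 0 of 13 passed, and Pdgfrb, a receptor of mural and mesenchymal cells, had 4.65, 5.63 and 4.76 FPKM in FP, against 14.2, 11.4 and 12.0 FPKM in RR (log2 change -1.17, adjusted p = 0.0833).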
